A study of Mus musculus with 15 samples.

Results

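Polyamine metabolism was represented by 10 genes, Azin1, Odc1, Oaz1, Oaz2, Sat1, Srm, Sms, Amd1, Paox and Smox, taken as all probe sets that carry one of these symbols alone in the platform annotation. The rule found 14 of 45037 probe sets, for 7 of the 10 genes. Azin1, Odc1 and Oaz2 had 3 probe sets each, Smox had 2, and Oaz1, Sat1 and Srm had 1 each. For Sms, 3 probe sets carry the symbol of a pseudogene as well, as does 1 further probe set of Oaz1, and these 4 were not used. Amd1 and Paox were not analysed here. The list was drawn up because Azin1 was higher in lesions than in normal cells in these same arrays. The values of Azin1 against normal cells are therefore given as a description, without a test.

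The samples were cells cut by laser capture microdissection from frozen lung sections of K-RasG12V knock-in mice, 3 months after Cre recombinase was brought in by adenovirus. All groups come from such mice, and the allele also expresses a colour marker of the cells that carry it. Early hyperplastic lesions, of about 500 cells, gave 3 arrays of the H1 subtype and 4 of the H2 subtype, and normal cells of the same lung sections gave 8. Strain, sex and age, the number of animals and the basis of the H1 and H2 subtypes were not given in the labels. Captured regions of 1 animal may stand in the same or in different groups, so p-values over regions may be too small or too large. All levels below are log2 signals, differences are in log2 units with the standard error (SE) of the limma fit, and levels of different genes are not comparable.

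Polyamines (putrescine, spermidine and spermine) are small cations that bind nucleic acids and are needed for growth. Ornithine decarboxylase, encoded by Odc1, makes putrescine from ornithine and is the rate-limiting step. Antizymes (Oaz1, Oaz2) bind ornithine decarboxylase and send it to the proteasome. Antizyme inhibitor 1 (Azin1) resembles ornithine decarboxylase but lacks its activity, and it takes antizyme away from the enzyme. Spermidine synthase (Srm) and spermine synthase (Sms) lengthen the chain with groups that come from S-adenosylmethionine through Amd1. Acetylation by Sat1 and oxidation by Paox and Smox break polyamines down. Antizymes and Azin1 are also controlled after transcription, which arrays do not measure.

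Values were spread more widely on some arrays than on others, measured as the standard deviation (SD) of log2 values over all genes of an array. It lay between 1.31 and 1.49 in H1, between 1.52 and 1.78 in H2 and between 1.14 and 1.67 in normal cells. Normal replicates 2 and 8 had the narrowest spread, 1.14 and 1.20. The marker lists were chosen with earlier results of these data known. All 4 epithelial genes (Epcam, Cdh1, Krt8, Krt18) had positive differences between lesions and normal cells, with a median of 1.91. Their summed linear signal was 414 to 2083 in lesions against 67.5 to 619 in normal cells. All 8 measured alveolar type 2 markers had positive differences too, with a median of 1.75. Their sums were 3481 to 19527 in lesions against 248 to 19824 in normal cells. All 7 endothelial markers had negative differences, with a median of -0.77 and sums of 234 to 395 in lesions against 208 to 1774 in normal cells. Of 7 macrophage markers 5 had positive differences, with a median of 0.54 and sums of 307 to 1288 in lesions against 155 to 937 in normal cells. Of 6 fibroblast markers 3 did, with a median of 0.22 and sums of 501 to 1339 in lesions against 333 to 1413 in normal cells. The lists for alveolar type 1, club, ciliated, smooth muscle, lymphoid and red blood cells had medians between -0.28 and -0.063. Among all markers limma called 1 in that comparison, where 0.291% of all genes were called. It was fibroblast Itga8, which was lower in lesions (-2.46 ± 0.42, adjusted p = 0.0267). In H2 against normal cells, where 3.38% of all genes were called, limma called Itga8 lower (-3.06, adjusted p = 0.0028). It called Col1a2 of fibroblasts, Cdh1, Krt8 and Krt18 of epithelium, Abca3 of type 2 cells and Cyp2f2 of club cells higher. Of the other club markers, Scgb1a1 differed by -0.00012, Scgb3a2 by -0.26 and Aldh1a1 by -2.11 in H2. Of the other fibroblast markers, Col1a1 and Col3a1 differed by 1.68 and 1.99, and Pdgfra and Tcf21 by -0.52 and -1.04. Between captured regions, fewer cells of a type and less RNA per cell cannot be told apart, and the part of cell makeup in the values below was not tested.

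Azin1 was the member with the clearest separation. Its brightest probe set, 1450714_at, measured 6.12, 7.00 and 7.60 in the 3 H1 lesions and 6.99, 7.18, 8.05 and 7.11 in the 4 H2 lesions. In normal cells the lowest value was 3.70, the median 4.96 and the highest 6.04. All 7 lesions were therefore above all 8 normal samples, although H1 replicate 2, at 6.12, was close to normal replicate 6, at 6.04. Lesions averaged 7.15 ± 0.59 (SD, n = 7) and normal cells 4.76 ± 0.74 (SD, n = 8), a difference of 2.39 ± 0.33 (SE), or 5.26-fold. The difference was 2.15 ± 0.43 for H1 and 2.58 ± 0.39 for H2, each against the same normal arrays. With 1 array left out in turn, it stayed between 2.24 and 2.58 for lesions.

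The other probe sets of Azin1 did not all show this. Probe set 1422702_at, which was designed from the same sequence record, measured 5.55, 6.23 and 6.04 in H1 and 4.56, 6.90, 7.76 and 6.49 in H2, against a lowest value of 3.15, a median of 3.75 and a highest of 4.39 in normal cells. Again the groups did not overlap, and the difference between lesions and normal cells was 2.41 ± 0.37. H2 replicate 1, at 4.56, lay just above the normal range on this probe set, whereas it was among the other H2 lesions on 1450714_at. The third probe set, 1430984_at, from another record, measured 3.20 to 3.80 in H1, 2.82 to 3.45 in H2 and 2.87 to 3.88 in normal cells. It differed by -0.19 ± 0.18 between lesions and normal cells. Its mean of 3.37 over all arrays was below 3.99, the median mean over the 45037 probe sets, and so it lay near the background in all groups.

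**Figure D1:**
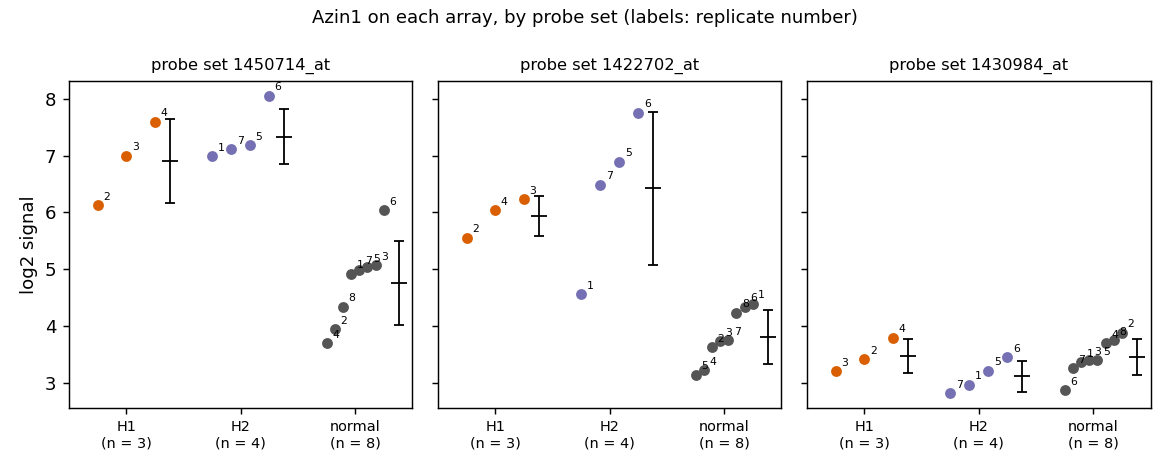
Log2 signal of the 3 Azin1 probe sets in each H1, H2 and normal array. Points are arrays, numbered by replicate and set in order of value, and bars give the mean and SD. On 1450714_at and 1422702_at all 7 lesions lie above all 8 normal arrays, with H2 replicate 1 at 4.56 on 1422702_at, and 1430984_at shows no separation.

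Oaz1, the major antizyme, had higher means in lesions, but the groups overlapped. Its probe set measured 6.49, 7.39 and 7.63 in H1 and 8.04, 8.51, 8.44 and 8.68 in H2, and in normal cells the lowest was 3.68, the median 6.83 and the highest 8.19. Of the 7 lesions, 3 were above every normal array, all of them H2. The difference between lesions and normal cells was 1.25 ± 0.55 (95% interval 0.086 to 2.42), which did not pass over all genes (limma adjusted p = 0.359). In H1 it was 0.54 ± 0.69 (adjusted p = 0.997), and in H2 it was 1.79 ± 0.62 (interval 0.47 to 3.11, adjusted p = 0.118).

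Oaz2, a second antizyme, measured 6.85, 7.36 and 8.40 in H1 and 5.66, 6.98, 7.65 and 7.80 in H2 on its brightest probe set, 1426763_at. The normal samples had a lowest value of 5.31, a median of 6.70 and a highest of 8.66, and so held the range of the lesions. The difference was 0.58 ± 0.45 for lesions (adjusted p = 0.624), 0.88 ± 0.60 for H1 (0.997) and 0.36 ± 0.54 for H2 (0.739). On the other probe sets lesions differed from normal cells by -0.10 ± 0.21 and -0.31 ± 0.22, so neither the size nor the sign was shared among the 3. With array spread as a covariate the brightest one differed by -0.053 for lesions and -1.13 for H2, with the sign turned.

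Odc1, the enzyme that antizyme and Azin1 act on, measured 8.63, 9.77 and 9.80 in H1 and 10.41, 10.04, 10.62 and 11.06 in H2 on its brightest probe set, 1437711_x_at. In normal cells the lowest value was 7.40, the median 9.04 and the highest 10.52. Only H2 replicates 6 and 7 were above the normal range. The difference was 1.10 ± 0.44 for lesions (interval 0.18 to 2.02, adjusted p = 0.308), 0.45 ± 0.53 for H1 (0.997) and 1.59 ± 0.48 for H2 (interval 0.57 to 2.60, adjusted p = 0.0795), none past the threshold. Without normal replicate 1 or 3, which held the highest normal values (10.52 and 9.79), the H2 difference was 1.81 or 1.71. It did pass in those fits (limma adjusted p = 0.0265 and 0.044), but in no other fit that left out 1 array. Over all genes, H2 calls rose there to 821 higher and 193 lower, or 1104 and 274, from 525 and 90. The suffix of this probe set marks probes that can match other sequences. The other probe sets, 1438761_a_at and 1427364_a_at, differed by 0.76 ± 0.44 and 0.24 ± 0.31 between lesions and normal cells, in the same direction and by less.

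Srm, spermidine synthase, measured 3.62, 3.67 and 3.98 in H1 and 3.99, 4.57, 4.17 and 3.86 in H2, against a lowest value of 3.22, a median of 3.77 and a highest of 4.56 in normal cells. The difference between lesions and normal cells was 0.12 ± 0.22 (interval -0.34 to 0.58, adjusted p = 0.849). With a mean of 3.91 this probe set lay near the background, where changes in transcript level are poorly seen.

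Sat1, the acetyltransferase that starts polyamine breakdown and export, had the second largest difference of the measured members. It measured 6.06, 7.87 and 8.00 in H1 and 7.29, 8.36, 9.06 and 8.80 in H2, while the normal samples had a lowest value of 3.79, a median of 6.51 and a highest of 7.83. Of the 7 lesions, 5 were above every normal array, 2 of them H1 and 3 H2. The difference was 1.75 ± 0.61 for lesions (interval 0.45 to 3.04, adjusted p = 0.242), 1.14 ± 0.79 for H1 (0.997) and 2.21 ± 0.71 for H2 (interval 0.69 to 3.72, adjusted p = 0.0939). Without normal replicate 3, which held the highest normal value, the H2 difference was 2.44 and passed (limma adjusted p = 0.0436). It passed in no other fit that left out 1 array, and H2 calls over all genes rose there to 1104 higher and 274 lower.

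Smox, spermine oxidase, measured 3.84, 3.27 and 3.45 in H1 and 4.31, 3.38, 3.55 and 4.13 in H2 on its brighter probe set, within the normal range of 3.21 to 4.44. The difference between lesions and normal cells was -0.045 ± 0.21 (interval -0.48 to 0.39, adjusted p = 0.948), and it was -0.16 ± 0.29 on the other probe set. Both probe sets had means below 3.99. Of the 14 probe sets, these 2, that of Srm and the dim one of Azin1 were the 4 below that level.

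**Figure D2:**
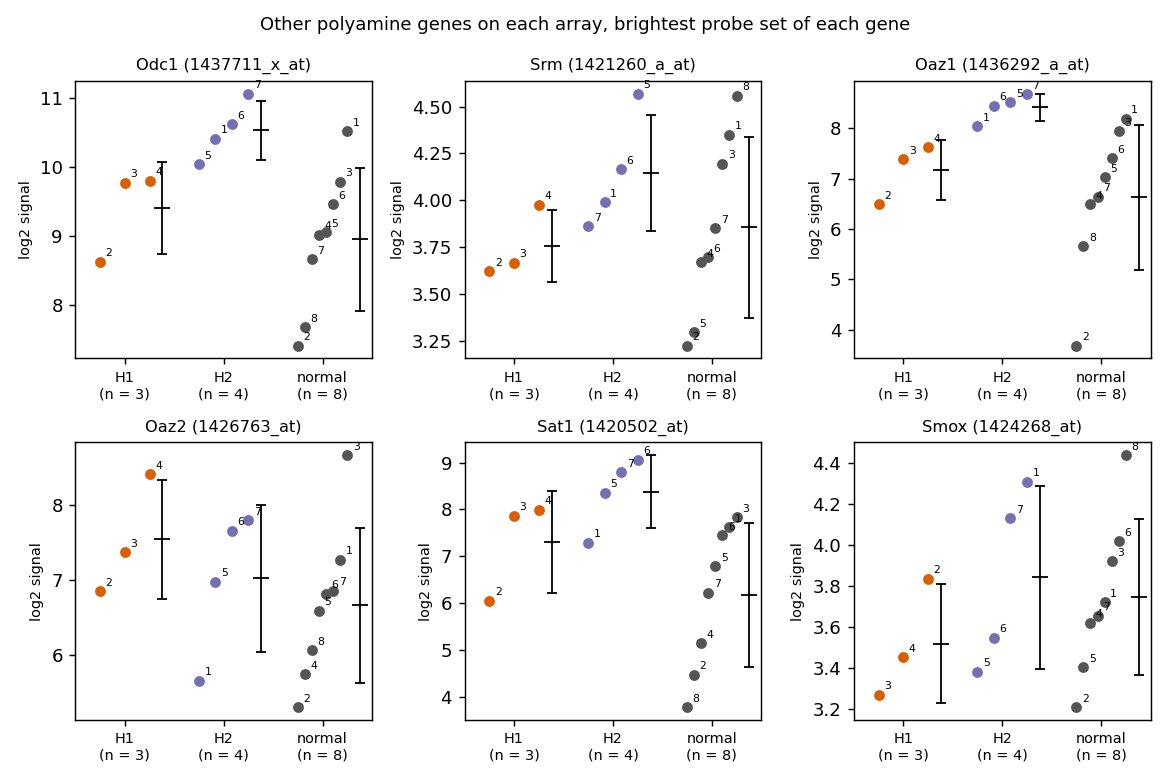
Log2 signal of Odc1, Srm, Oaz1, Oaz2, Sat1 and Smox in each H1, H2 and normal array, for the probe set of highest mean of each gene. Points are arrays, numbered by replicate and set in order of value, bars give the mean and SD, and each panel has its own scale. The groups overlap in every panel when all 7 lesions are set against the 8 normal arrays, and normal replicate 2 or 8 is the lowest in all 6.

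Counted over the list, limma called 1 of 7 members between lesions and normal cells, where 0.291% of 18193 genes were called, 0 in H1 against normal (0.011% of genes) and 1 in H2 against normal (3.38% of genes). The last share rests on single arrays, since 102 genes were higher and 17 lower without H2 replicate 7, and 1104 and 274 without normal replicate 3, in place of 525 and 90. The 1 member was Azin1, which was chosen on these comparisons, so nothing is read from these counts. Of the other 6 members, 0 were called in any of the 3 comparisons by limma. With array weights, 1586 of 18193 genes were called higher and 613 lower in H2, in place of 525 and 90. Odc1, Oaz1 and Sat1 were among those called higher there (limma adjusted p = 0.0145, 0.0235 and 0.0192). At an unadjusted p under 0.05 stood 3 of the 6 between lesions and normal cells (12.8% of genes), 0 in H1 (4.23%) and 3 in H2 (21.4%), namely Odc1, Oaz1 and Sat1. Apart from Azin1, 0 of the 6 had groups that did not overlap in any of the 3 comparisons, where 0.225%, 1.4% and 3.79% of genes had such groups for lesions, H1 and H2. The median difference of the 6 was 0.84 for lesions, 0.49 for H1 and 0.97 for H2, against -0.058, -0.047 and -0.040 over all genes. Over all 14 probe sets, those of Azin1 included, it was 0.41, 0.31 and 0.39, against -0.073, -0.051 and -0.075 over all probe sets. The probe sets that stood for Odc1, Oaz1, Oaz2 and Sat1 were bright, at percentiles 99.7, 97.3, 96.5 and 96.7 of mean signal. Those of Srm and Smox were at 47.2 and 40.5.

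**Figure D3:**
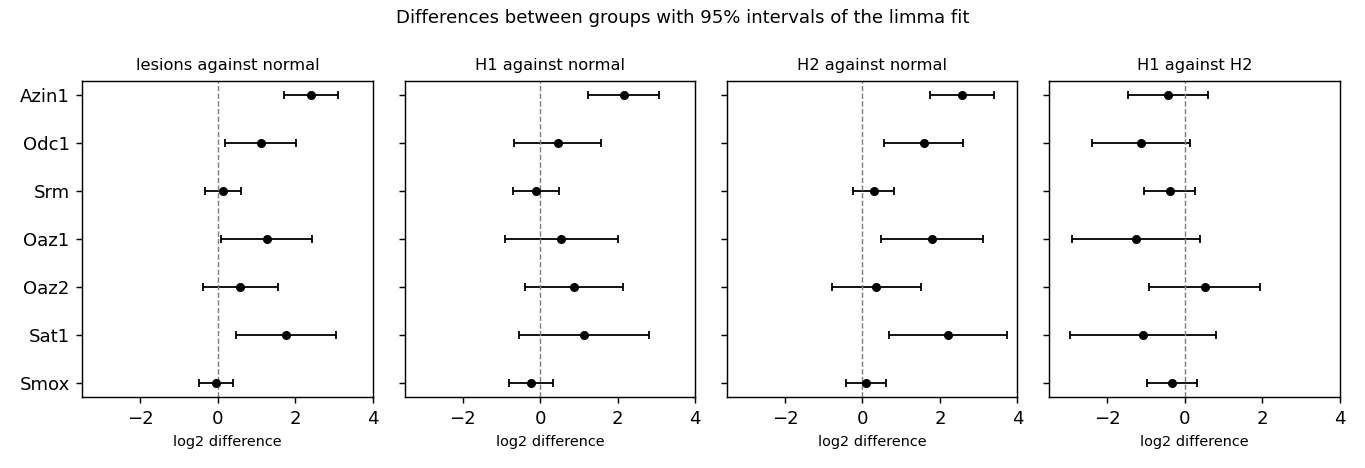
Log2 difference of the 7 measured members in the 4 comparisons, with the 95% interval of the limma fit. The dashed line marks no difference. Azin1 lies at 2.39, 2.15 and 2.58 against normal cells and at -0.43 between H1 and H2, and Odc1, Oaz1 and Sat1 have intervals above 0 for lesions and H2 only, without adjustment for the number of genes tested.

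Odc1, Oaz1 and Sat1 were low on the normal arrays of narrow spread. Normal replicates 2 and 8, the arrays of narrowest spread, had the 2 lowest values of each of these genes among all 15 arrays. The other 6 normal arrays had a spread within the range of the lesions. In those 6, Odc1 lay between 8.66 and 10.52, against 8.63 to 11.06 in lesions. Oaz1 lay between 6.49 and 8.19 there, against 6.49 to 8.68 in lesions, and Sat1 between 5.16 and 7.83, against 6.06 to 9.06 in lesions. Spread also differed between the groups, with means of 1.42 in H1, 1.64 in H2 and 1.38 in normal cells, so that group and spread cannot be fully told apart.

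With array spread as a covariate the differences between lesions and normal cells were 0.27 for Odc1, 0.23 for Oaz1 and 0.59 for Sat1 (limma adjusted p = 0.697, 0.828 and 0.484), compared with 1.10, 1.25 and 1.75 without it. For H2 they were 0.28, 0.13 and 0.20, compared with 1.59, 1.79 and 2.21. For Azin1 the difference was 1.97 for lesions, 2.05 for H1 and 1.85 for H2 in that fit, and 2.19, 1.95 and 2.37 without normal replicates 2 and 8. On its probe set 1422702_at it was 2.10 for lesions with the covariate and 2.45 without those 2 arrays. With the 3′ to 5′ difference of control probe sets as a covariate, Azin1 differed by 2.15 (Actb) and 2.14 (Gapdh) between lesions and normal cells.

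**Figure D4:**
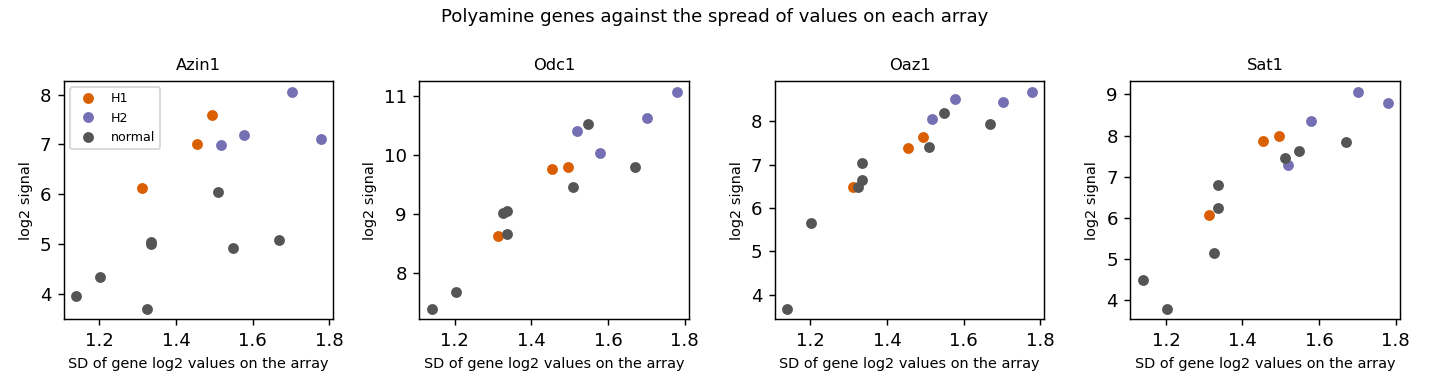
Log2 signal of Azin1, Odc1, Oaz1 and Sat1 on each array (vertical axis) against the SD of the log2 values of all genes on that array (horizontal axis), coloured by H1, H2 and normal. Odc1, Oaz1 and Sat1 are lowest in the 2 narrowest normal arrays, and their lesion and normal values overlap where the spread is alike. The Azin1 values of lesions, at 6.12 and above, exceed all normal values, which is the pattern it was chosen for.

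H1 was set against H2 to ask whether the lesion subtypes differ, a comparison that did not lead to the list. No member passed limma (0 of 7, against 0.0055% of genes), and 0 stood at an unadjusted p under 0.05 (12.3% of genes). Azin1 averaged 6.91 ± 0.74 (SD, n = 3) in H1 and 7.33 ± 0.49 (SD, n = 4) in H2, a difference of -0.43 ± 0.48 (interval -1.46 to 0.60, adjusted p = 0.721). Its sign turned under some settings: it was 0.13 after repeated quantile normalization, 0.19 with array spread as a covariate, and 0.12 (Actb) and 0.012 (Gapdh) with the 3′ to 5′ difference of a control as a covariate.

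Odc1 differed by -1.13 ± 0.60 between H1 and H2 (interval -2.40 to 0.14, adjusted p = 0.447), with every H1 array (8.63 to 9.80) below every H2 array (10.04 to 11.06). Oaz1 likewise did not overlap and differed by -1.25 ± 0.77 (adjusted p = 0.502). Such separation of 3 from 4 arrays was seen for 2 of 7 members and for 18.2% of all genes. Sat1 differed by -1.07 ± 0.89 and Srm by -0.39 ± 0.31 (adjusted p = 0.615 and 0.606). Oaz2 was the 1 member with a positive value, 0.52 ± 0.67 (adjusted p = 0.76). With array spread as a covariate Odc1 differed by -0.011, Oaz1 by 0.17 and Sat1 by 0.65.

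Genes around the polyamine cycle were read from a list arranged by role, of which 38 of 42 were measured. This list was chosen with earlier results of these data known, so its shares of calls are a description. In H2 against normal cells, 2 were called higher and 2 lower by limma, that is 4 of 38 against 3.38% of all genes (2.89% higher and 0.495% lower). In lesions as a whole and in H1, 0 of 38 were called by limma, and in H1 against H2 also 0. Without adjustment, 6 stood higher and 2 lower in lesions (12.8% of all genes), 3 higher in H1 (4.23%), 7 higher and 5 lower in H2 (21.4%), and 3 higher and 1 lower in H1 against H2 (12.3%). The list's median difference was -0.021 for lesions, -0.042 for H1 and -0.011 for H2, close to the medians of all genes given above.

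Dhps, deoxyhypusine synthase, which uses spermidine to modify the translation factor encoded by Eif5a, rose in H2. It measured 8.64, 7.44, 6.50 and 7.82 in H2, against a lowest value of 4.35, a median of 5.19 and a highest of 6.92 in normal cells. H2 replicate 6 lay within the normal range and the other 3 above it. The difference was 2.30 ± 0.45 (adjusted p = 0.0151), and it passed in 14 of 15 fits that left out 1 array, but not without H2 replicate 7 (2.23, adjusted p = 0.0616). Dhps was 1.65 with array spread as a covariate (adjusted p = 0.144). The other probe set of Dhps differed by -0.15. In H1, Dhps measured 5.96, 6.54 and 6.72, within the normal range, and between H1 and H2 it differed by -1.19 ± 0.56 (adjusted p = 0.405).

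Slc7a2, a carrier of cationic amino acids such as ornithine and arginine, rose in H2 by 2.20 ± 0.57 (adjusted p = 0.0458). It measured 6.29, 7.83, 8.22 and 8.10 in H2, against a lowest value of 3.47, a median of 5.24 and a highest of 7.69 in normal cells, so that H2 replicate 1 lay within the normal range. Leaving out 1 array at a time, Slc7a2 passed in 4 of 15 fits, when normal replicate 1, 3 or 6 or H2 replicate 1 was dropped (2.53, 2.17, 2.34 and 2.64). In the others it did not pass, with an adjusted p of up to 0.146. With array spread as a covariate it was 1.03 (adjusted p = 0.448). Its other 3 probe sets differed by 0.62, 0.27 and -0.31.

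Azin2, a paralog of Azin1 that also binds antizyme, fell in H2, at -0.80 ± 0.21 (adjusted p = 0.0458). It measured 4.74, 5.02, 5.19 and 5.30 in H2, against a lowest value of 5.30, a median of 5.95 and a highest of 6.38 in normal cells, so that the groups touched at the edge. Its other probe sets differed by -0.38 and -0.30. Slc22a2, an organic cation transporter, fell in H2, at -0.81 ± 0.20 (adjusted p = 0.039). Its 4 H2 values, 4.24, 4.10, 4.28 and 4.27, lay below all normal values, of which the lowest was 4.34. Neither gene passed with array spread as a covariate, where they differed by -0.62 and -0.50 (adjusted p = 0.311 and 0.365). Leaving out 1 array at a time, without that covariate, Azin2 passed in 3 of 15 fits, when normal replicate 1, 3 or 6 was dropped (-0.88, -0.79 and -0.86). Slc22a2 passed in 4, when one of the same normal arrays (-0.87, -0.82 and -0.91) or H1 replicate 2 (-0.81) was dropped.

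By role, ornithine supply had 6 of 9 genes with positive differences between lesions and normal cells and a median of 0.34. In that comparison the lowest p-values among all the pathway genes were those of Dhps, at 1.79 ± 0.42 (adjusted p = 0.0793), and Mtap, which salvages the methylthioadenosine left by polyamine synthesis, at 1.20 ± 0.35 (adjusted p = 0.169). In H1 they were those of Slc7a1, an arginine carrier, at 1.25 ± 0.49, and Arg2, which makes ornithine, at 1.09 ± 0.46 (adjusted p = 0.997 for each). The other probe sets of Slc7a1 differed by 0.16 and -0.33 in H1, and that of Arg2 by 1.56. The methionine cycle and salvage genes had 4 of 8 positive differences between lesions and normal cells, with a median of -0.048. Transport and outer oxidation genes had 2 of 9, with a median of -0.026, hypusine genes 2 of 4 with a median of 0.097, and paralogs of the members 1 of 4 with a median of -0.31. Myc, which activates Odc1 transcription, its partner Max and its relatives Mycn and Mycl had 2 of 4 positive differences, with a median of 0.019 and 0 called. Between H1 and H2 the lowest p-values were those of Azin2, at 0.79 ± 0.26 (adjusted p = 0.319), and Slc22a2, at 0.56 ± 0.25 (adjusted p = 0.388).

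**Figure D5:**
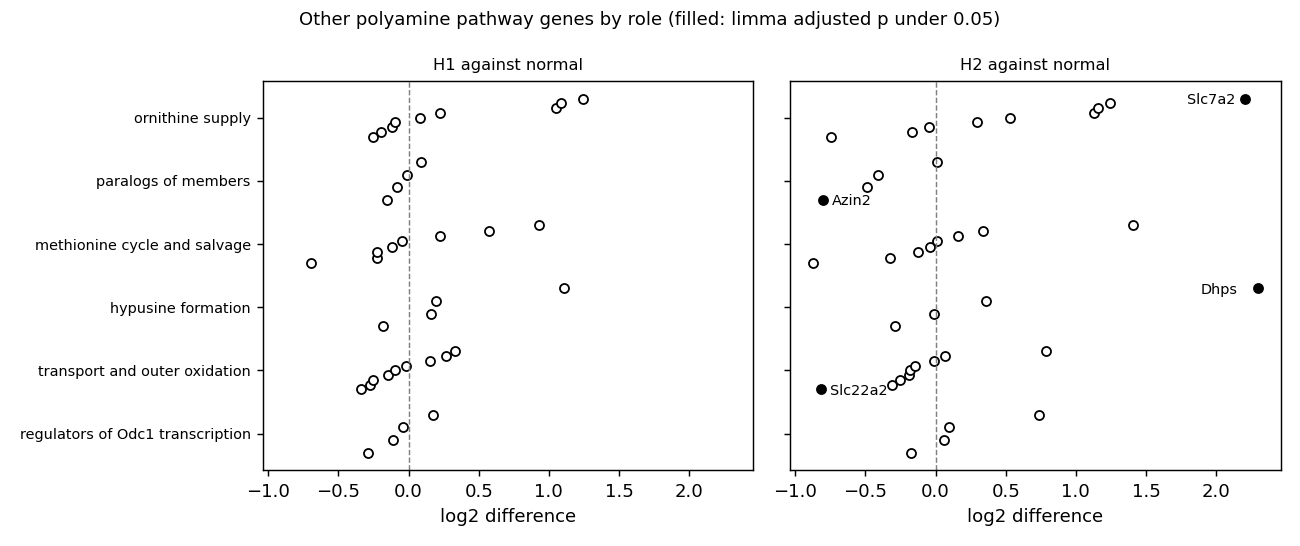
Log2 differences of 38 other polyamine pathway genes in H1 against normal and H2 against normal, by role. Each point is a gene, and filled points passed limma at an adjusted p under 0.05. In H2, Dhps (2.30) and Slc7a2 (2.20) are to the right and Azin2 (-0.80) and Slc22a2 (-0.81) to the left, and no point is filled in H1.

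The genes whose values over the 15 arrays were most like those of the brightest Azin1 probe set were Rnf20, a histone ubiquitin ligase (Pearson's r = 0.94), Mgst1, a microsomal glutathione transferase (0.94), Adamts1, a secreted protease (0.92), Rai14, an actin-associated protein (0.92), and Atp2a2, a calcium pump (0.92). Predicted genes, sex-linked genes other than members and genes without an established symbol or chromosome were left out of this ranking, which covered 15727 genes. These arrays share the difference between lesions and normal cells, which alone raises such values. Before any gene was left out, 204 had an r above 0.8. Taken from deviations from the group means, r was 0.90 for Rnf20, 0.79 for Mgst1, 0.72 for Adamts1, 0.82 for Rai14 and 0.86 for Atp2a2. By Spearman's rho or by deviations from group means, 1 of the 5 closest genes was shared with this list, Atp2a2 in the first case and Rnf20 in the second. Among the members, r with Azin1 was 0.81 for Sat1, 0.70 for Odc1, 0.69 for Oaz1, 0.52 for Oaz2, 0.25 for Srm and -0.039 for Smox. The median r over all genes was -0.10, and these members stood at percentiles 99.1, 95.8, 95.5, 88.2, 75.1 and 55.5. From deviations from the group means r was 0.77 for Sat1, 0.64 for Oaz2, 0.60 for Oaz1, 0.54 for Odc1, 0.17 for Srm and -0.039 for Smox. The order below Sat1 therefore depended on the measure. Such deviations still hold the differences in spread between arrays, and the part of spread in all these correlations was not tested.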

How the data were processed

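RNA of microdissected mouse lung cells was hybridised to 15 Affymetrix arrays. The authors deposited log2 values for each probe set, made with the affy package and RMA per the submitters' processing notes, with no version given. RMA corrects background, quantile-normalizes probe intensities and summarises each probe set. Of 45101 probe sets, 64 array controls were left out. Gene symbols came from the platform annotation, in which 34945 probe sets had 1 symbol, 932 had several and 9160 had none. Only those with 1 symbol stood for genes. The probe set of highest mean stood for a gene, which left 18193 genes.

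The test was limma 3.58.1 in R 4.3.3 (lmFit and eBayes). Lesions against normal used a fit with 2 groups. The other comparisons were contrasts of a fit with 3 groups over all 15 arrays. Benjamini-Hochberg adjustment ran over all genes, and over all 45037 probe sets where single probe sets are tested, with a threshold of 0.05. The fits were checked on simulated data. The members and lists were chosen with earlier results of these data known. All members were to be named, with up to 4 other pathway genes called in each direction and otherwise the 2 with the lowest p, and the 5 genes most correlated with Azin1.

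The labels do not say whether equal replicate numbers mark a pair, and the main fit did not pair arrays. Of 7 same-numbered pairs, 4 had a correlation of deviations above 0.1, with a range of -0.13 to 0.33. Only 1 lesion array was closest to the normal array of its own number. These values cannot decide whether same-numbered arrays shared an animal. No 2 arrays were identical (highest correlation 0.94). The labels do not say which captured regions shared an animal, so p-values reflect only how these captured samples varied. The alternatives were centring, repeated quantile normalization, filters, other probe set rules, variance priors, weights, a replicate block, the arrays fitted, covariates for array spread and for the 3′ to 5′ control differences, and leaving out arrays.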

Additional observations from a re-analysis of the deposited data

How the results depend on the processing

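Of the 14 alternatives to the processing, each applied to lesions against normal, Azin1 kept its sign in all, between 1.54 and 2.47, and it did so for H1 (1.43 to 2.67) and H2 (1.62 to 2.70). Azin1 was chosen because it was higher in lesions in these same arrays, so its kept sign and size are a description only. The 1 member called for lesions was Azin1, and nothing is read from its calls. For H1 the count of members called was 1 in place of 0 with array weights and with the spread covariate. That member was again Azin1. Over all genes, 17 were higher and 1 lower with array weights there, and 15 and 6 with the spread covariate. For H2 the count was 4 with array weights, where Odc1, Oaz1 and Sat1 passed at 1.69, 1.76 and 2.46. In that fit 1586 genes were called higher and 613 lower. With 1 array left out the count was 1 to 1 for lesions, 0 to 0 for H1, 1 to 3 for H2 and 0 to 0 for H1 against H2. The 3 in H2 came without normal replicate 3, where 1104 genes were called higher and 274 lower.

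Signs changed for some members, among them Oaz1 and Sat1 between H1 and H2, at -1.25 and -1.07 as reported, and Oaz2 in H2, at 0.36. For lesions the changed values were Smox at 0.029 when median centred, 0.030 when quantile-normalized again and 0.054 with the replicate block, Srm at -0.035 (spread) and -0.058 (Actb), and Oaz2 at -0.053 (spread). For H1 these were Srm at 0.059 with the replicate block, and Odc1 at -0.018 and Oaz1 at -0.12 without the 2 narrowest normal arrays. For H2 these were Oaz2 at -0.15 (quantile), -0.14 (mean of probe sets), -1.13 (spread), -0.32 (Actb) and -0.44 (Gapdh), Smox at -0.0014 (mean), -0.10 (most variable) and -0.083 (Actb), and Srm at -0.052 (Actb). Between H1 and H2 these were Azin1 at 0.13 (quantile), 0.19 (spread), 0.12 (Actb) and 0.012 (Gapdh), Oaz1 at 0.17 (spread) and Sat1 at 0.65 (spread). Leaving out 1 array gave -0.15 to 0.054 for Smox in lesions and -0.062 to 0.25 in H2, and -0.21 to 0.00054 for Srm in H1. The cause was not tested.

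Of the other pathway genes, 1 was called higher in lesions with the mean or most variable probe set and 2 with array weights, in place of 0. Over all genes 61, 66 and 208 were called higher in those settings, in place of 51. In H2, in place of 2 higher and 2 lower, 1 and 1 were called when quantile-normalized again (159 and 42 over all genes). These were Dhps and, on the lower side, Adi1 (-1.64). Azin2 and Slc22a2 did not pass there (limma adjusted p = 0.102 and 0.0969). With array weights 5 were called higher, where 1586 genes were called higher over all genes. With the replicate block, the spread, Actb or Gapdh covariate there were 0 and 0. Over all genes 84 and 15, 57 and 98, 74 and 18, and 39 and 10 were called in those settings. There were 1 and 0 over all probe sets, with only the compared arrays or without the 2 narrowest normal arrays. In those settings 767 and 152 of all probe sets, and 352 and 39 and then 293 and 54 of all genes, were called. Lower calls were 1 when median centred, with the mean or most variable probe set and with a trended prior. Over all genes 67, 63, 86 and 74 were called lower in those settings. With 1 array left out, 0 to 1 higher were called in lesions, and 0 to 4 higher and 0 to 3 lower in H2. In the other comparisons it stayed at 0. Over all genes, the calls ranged from 20 to 208 higher and 1 to 46 lower for lesions (51 and 2), 0 to 17 and 0 to 6 for H1 (2 and 0), 39 to 1586 and 10 to 613 for H2 (525 and 90), and 0 to 63 and 0 to 121 for H1 against H2 (0 and 1). With 1 array left out they ranged from 8 higher (without H2 replicate 5) to 229 (without H1 replicate 2) and 0 to 9 lower for lesions, 1 to 5 and 0 to 0 for H1, 102 (without H2 replicate 7) to 1104 (without normal replicate 3) and 16 to 274 for H2, and 0 to 0 and 0 to 2 for H1 against H2. With the spread covariate 40 were higher and 46 lower for lesions and 57 and 98 for H2. The main fit did not pair same-numbered arrays, and H1 and H2 share no number, so that no block could be fitted between them. Signals near the background limit Srm, Smox and the third Azin1 probe set.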
